A study of Mus musculus with 12 samples.

Results

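The surface proteins encoded by Kit, Flt3, Cd34, Ly6a, Procr, Slamf1, Cd48 and Tek are used to tell blood stem cells from their first progeny. DNase I hypersensitive sites (DHSs), the short stretches of open chromatin that the nuclease cuts, were examined around these 8 genes out of 21755 protein-coding genes. The sites were all DHSs within the gene bodies or 50 kb on either side of them, 160 of the 170207 sites found in the series. A site was the merged region of the 150 bp peaks of all libraries that overlapped by at least 1 bp. Sites were assigned to the members by position alone, and some lay nearer to the start site of another gene. Sites whose peak midpoint lay within 1 kb of a member's start site were called promoter sites, and all others were called distal, with those at the promoters of other genes named as such.

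The 12 libraries came from C57BL/6J mouse marrow cells in 5 groups. LSK cells (3 libraries) were lineage-depleted marrow cells sorted for high SCA1 and KIT and used fresh. The DN1, DN2a and DN2b groups (2 libraries each) hold early steps of T cell development in that order. They were raised from LSK cells on immobilized Notch ligand (Delta1ext-IgG), which the study describes as being at high density. They were sorted as KIT++CD44+CD25- (DN1), KIT++CD44+CD25+ (DN2a) and KIT+CD44loCD25+ (DN2b). IgG cells (3 libraries) were LSK cells cultured on human IgG without Notch ligand. All cultures held stem cell factor, FLT3 ligand, interleukin 6 and interleukin 11, and the LSK cells were not cultured. DN1 cells came from cultures without interleukin 7 and DN2 cells from cultures with it, so stage and interleukin 7 cannot be told apart. The study describes interleukin 7 for Delta1 cultures only, so between DN2 and IgG cells ligand and interleukin 7 cannot be told apart either. DN libraries can share an LSK isolate, the labels do not say which, and an age of the mice is not given in the sources used here. KIT protein was a sorting criterion for LSK, DN1, DN2a and DN2b cells, and SCA1, the product of Ly6a, for LSK cells, so those groups had been selected for these products.

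The deposited peak lists held 53869 to 62377 peaks in LSK cells, 69391 to 96436 in DN1, 57729 to 68478 in DN2a, 61484 to 111582 in DN2b and 32952 to 37511 in IgG cells on the autosomes and chromosome X. Read totals are not in these lists, so depth is unknown, and the absence of a peak says less in the short IgG lists than in the others. Of 10 T cell precursor genes, 0 had a promoter peak in the IgG libraries, 1 to 2 in LSK, 4 in DN1, 7 in DN2a and 8 to 9 in DN2b. Of 10 stem and progenitor genes, several of them members, 5 had a promoter peak in each LSK library. The numbers were 5 to 6 in DN1, 5 in DN2a, 7 in DN2b and 2 to 4 in the IgG libraries. Of 10 myeloid genes, 5 to 8 had one in the IgG libraries and 2 to 3 in the others. The part of the list lengths and of this myeloid signal in the results below was not tested beyond the equal-length values given beside them.

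KIT is the receptor of stem cell factor and FLT3 that of FLT3 ligand, and both are receptor tyrosine kinases that keep early progenitors alive and dividing. TEK, or TIE2, is the angiopoietin receptor of endothelial cells and of quiescent stem cells. CD34 is a sialomucin, SCA1 is a glycolipid-anchored protein of the Ly6 family, PROCR is the endothelial protein C receptor, and SLAMF1 (CD150) and CD48 belong to the SLAM family. In mouse marrow, long-term stem cells carry SLAMF1 and PROCR and lack CD48 and FLT3, and the multipotent progenitors that make up most of the LSK population gain CD34, CD48 and FLT3.

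The values below turn on a few sites outside the members' promoters. Their central 150 bases follow, from the plus strand of GRCm38.p6, the assembly behind mm10. They are shown because they carry the contrasts between groups described below. At Flt3 -26.1 kb the contrast is in rank alone, and the others had no peak in at least 1 library. Capitals mark letters of 8 motifs searched on both strands. The letters were TGTGGT for the RUNX factors and AGATAA for the GATA factors. For the factor PU.1 they were GAGGAAGT, for other ETS family members CCGGAA and for RBPJ, the DNA-binding partner of Notch, GTGGGAA. For TCF and LEF proteins they were CTTTGA, for the E-box CAGCTG and for MYB proteins AACGG. No motif's letters lie within those of another, and the E-box reads the same on both strands.
Kit +120.4 kb, chr5:75695277-75695426: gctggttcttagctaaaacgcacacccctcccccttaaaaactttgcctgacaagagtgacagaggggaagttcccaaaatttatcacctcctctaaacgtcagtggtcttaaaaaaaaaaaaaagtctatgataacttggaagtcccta
Flt3 +59.3 kb, chr5:147341117-147341266: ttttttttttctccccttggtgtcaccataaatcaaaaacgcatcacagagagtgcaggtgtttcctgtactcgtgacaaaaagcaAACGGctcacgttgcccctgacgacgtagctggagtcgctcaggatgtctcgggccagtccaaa
Flt3 -26.1 kb, chr5:147426537-147426686: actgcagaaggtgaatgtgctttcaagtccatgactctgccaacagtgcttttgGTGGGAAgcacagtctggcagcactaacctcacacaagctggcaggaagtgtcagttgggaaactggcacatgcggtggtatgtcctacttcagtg
Cd34 +4.9 kb, chr1:194943637-194943786: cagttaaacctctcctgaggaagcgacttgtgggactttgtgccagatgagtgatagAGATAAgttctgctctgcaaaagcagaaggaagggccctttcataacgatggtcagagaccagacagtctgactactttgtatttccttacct
Procr -8.0 kb, chr2:155743057-155743206: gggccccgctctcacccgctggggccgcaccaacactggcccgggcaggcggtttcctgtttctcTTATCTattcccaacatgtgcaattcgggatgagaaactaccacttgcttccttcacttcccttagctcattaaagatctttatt
Slamf1 +82.6 kb, chr1:171849607-171849756: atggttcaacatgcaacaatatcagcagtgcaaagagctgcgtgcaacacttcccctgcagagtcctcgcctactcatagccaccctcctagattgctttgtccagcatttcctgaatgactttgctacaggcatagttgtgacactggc
Cd48 -7.3 kb, chr1:171674637-171674786: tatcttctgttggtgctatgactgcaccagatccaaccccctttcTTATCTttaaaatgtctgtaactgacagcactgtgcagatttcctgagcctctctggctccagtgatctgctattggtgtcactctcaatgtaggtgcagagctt

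The GATA letters stood in the Cd34, Procr and Cd48 windows, in 19 of the 160 member sites (11.9%) and in 8.25% of all sites. The RBPJ letters stood in the Flt3 -26.1 kb window, in 11 member sites (6.88%) and in 3.43% of all sites. The MYB letters stood in the Flt3 +59.3 kb window, in 9 member sites (5.63%) and in 8.59% of all sites. The RUNX letters stood in 38 member sites (23.75%) against 23.05% of all sites, and the E-box in 14 (8.75%) against 11.49%. The PU.1 letters stood in 13 (8.13%) against 5.70%, the ETS letters in 8 (5%) against 4.69%, and the TCF/LEF letters in 17 (10.6%) against 11.2%. The Kit and Slamf1 windows held none of the 8 motifs. These matches are a description of letters and no test was made on them.

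The openness of a site in a library was expressed as the percentile of its peak among all peaks of that library by the deposited score, with 0 for no peak, since the score has no stated meaning beyond its rank. Differences across the 5 groups were measured by eta squared, the share of the variance that lies between groups, with exact permutation of the libraries over their 138600 possible divisions and Benjamini-Hochberg adjustment over all sites or all promoters with a peak. The smallest p this design can give is 7.215e-06. Among all sites 8.39% passed an adjusted p of 0.05, and 12 of the 160 member sites (7.5%) did, so by this count the members as a list stood near the background. At an unadjusted exact permutation p below 0.05 there were 61 of the 160 member sites and 29.9% of all sites. The median eta squared was 0.604 over member sites and 0.4545 over all sites. The latter is the value that a peak in only 1 library of a group of 2 always gives. Sites seen in 1 library only were 45 of the 160 member sites and 55680 of all 170207 sites, so the gap is not read as a result. What follows is therefore given gene by gene. Leaving out IgG 1, IgG 2 or IgG 3 left 0% of all sites and 0 member sites past the threshold, with 38 to 40 of 159 member sites and 19.6% to 20.2% of all sites at an unadjusted exact permutation p below 0.05. Calls were also lost without other libraries, and those at Cd48 -7.3 kb and at the Flt3 promoter site were lost whichever of the 12 was left out. Without any IgG library, eta squared was 0.976 at Cd48 -7.3 kb (0.980 with them), 0.965 at Ly6a +42.4 kb (0.990) and 0.932 at Kit +120.4 kb (0.944), and 0% of all sites passed.

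Of the 8 promoters, only those of Kit, Flt3 and Cd34 had a peak in every LSK library, against 47.8% of all 21755 protein-coding genes. The label of the set as surface genes of stem and progenitor cells was thus not matched by a promoter open in every LSK library at the other 5 genes. Promoter peaks of Ly6a were found in 0 of the 12 libraries. Those of Procr and Tek were each found in 1 library, and those of Slamf1 in 4 libraries, none of them LSK. The Cd48 promoter had a peak in 1 LSK library and in 5 of the 6 Delta1-cultured libraries. Across all promoters with a peak, 20.2% passed the test across groups (2752 of 13606), and 2 of the 7 member promoters with a peak did, Flt3 and Cd34.

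**Figure D1:**
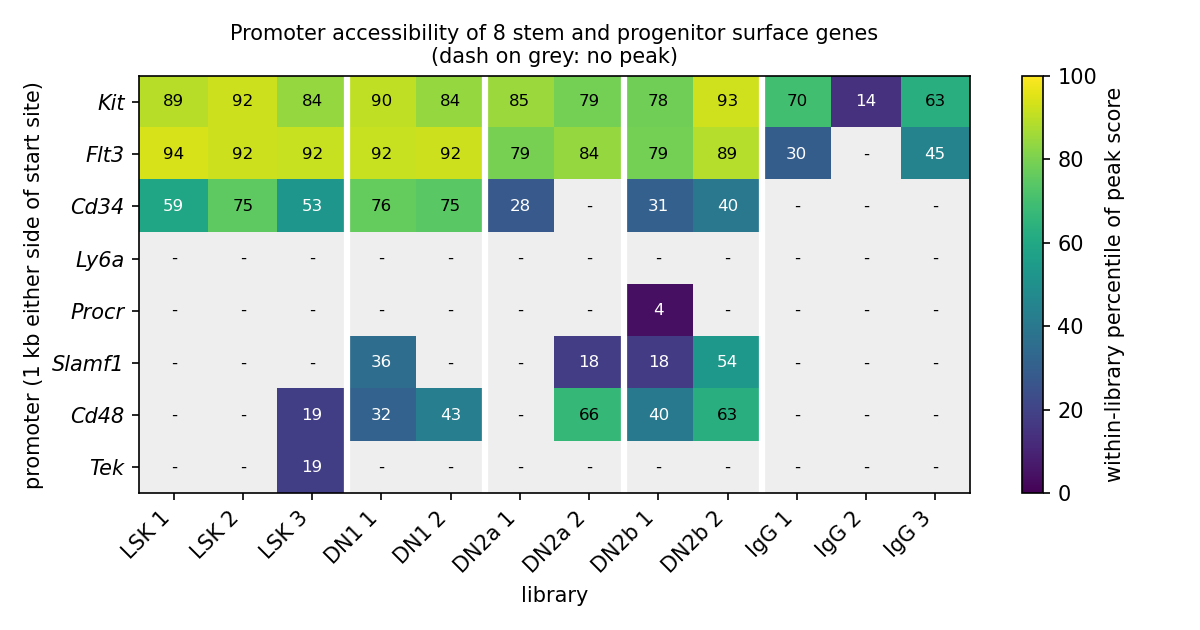
Within-library percentile of the highest peak (colour and number) at the promoter of each of the 8 genes (rows) in each of the 12 libraries (columns), with a dash where there was no peak. Kit and Flt3 sat between 78.3 and 94.0 in the LSK and Delta1-cultured libraries, Cd34 had a mean of 75.5 in DN1 and 13.9 in DN2a, and Ly6a had no promoter peak.

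The stretches just upstream of the start sites differ in their content of CpG, a dinucleotide that is frequent at promoters open in many cell types. The 150 bases upstream of the start are printed for the 3 promoters open in every LSK library and for Procr and Slamf1, which were not, from the RefSeq promoters of GRCm38.p6, in which 7 of the 8 genes matched and Ly6a was missing. Capitals mark CpG, and each sequence is on the gene's own strand.
Kit, chr5:75574766-75574915, plus strand: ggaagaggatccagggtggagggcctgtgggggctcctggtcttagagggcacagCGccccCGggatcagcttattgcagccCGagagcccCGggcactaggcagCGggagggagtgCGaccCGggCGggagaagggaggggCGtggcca
Flt3, chr5:147400490-147400639, minus strand: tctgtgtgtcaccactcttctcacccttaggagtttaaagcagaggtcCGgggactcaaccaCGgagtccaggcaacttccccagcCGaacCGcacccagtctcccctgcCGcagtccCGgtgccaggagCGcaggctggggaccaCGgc
Cd34, chr1:194938669-194938818, plus strand: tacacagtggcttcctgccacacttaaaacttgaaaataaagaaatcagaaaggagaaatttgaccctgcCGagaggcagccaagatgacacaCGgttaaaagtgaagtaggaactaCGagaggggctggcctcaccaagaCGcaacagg
Procr, chr2:155750967-155751116, plus strand: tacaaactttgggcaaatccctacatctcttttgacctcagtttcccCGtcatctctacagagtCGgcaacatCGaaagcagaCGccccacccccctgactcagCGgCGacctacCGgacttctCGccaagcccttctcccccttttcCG
Slamf1, chr1:171766977-171767126, plus strand: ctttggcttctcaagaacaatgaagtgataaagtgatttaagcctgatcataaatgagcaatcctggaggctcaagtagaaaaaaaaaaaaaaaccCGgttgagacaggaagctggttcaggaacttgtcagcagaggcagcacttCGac

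These windows held 9 CpG at Kit, 8 at Flt3, 4 at Cd34, 9 at Procr and 2 at Slamf1, so Procr, with a promoter peak in 1 library, had as many as Kit. In 2 kb centred on the start site, the observed/expected CpG ratio was 0.707 at Kit and 0.610 at Flt3, above the median of 0.478 over all protein-coding promoters. The ratio was 0.353 at Cd34, 0.342 at Procr, 0.301 at Tek, 0.254 at Cd48, 0.143 at Slamf1 and 0.101 at Ly6a, all below it. Kit and Flt3, with ratios above the median, had a promoter peak in all 9 LSK and Delta1-cultured libraries. Cd34, below it, had one in every LSK, DN1 and DN2b library and in 1 DN2a library. A ratio above the median thus did not set apart the promoters open in every LSK library. This covers 8 genes and is a description only.

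Kit, on chromosome 5 (chr5:75574916-75656722, plus strand), had 20 sites, of which 9 were seen in 1 library only, against 55680 of all 170207 sites. Its promoter stood at percentiles of 89.3, 92.2 and 84.1 in the LSK libraries and of 90.5 and 84.2 in DN1. The DN2a libraries had 85 and 79.2 and the DN2b libraries 78.3 and 92.7. The IgG libraries had 69.8, 14.2 and 62.8. Every IgG library was below every other library in the lists as deposited, and the LSK, DN1, DN2a and DN2b values overlapped. With all lists cut to their 32952 highest-scoring peaks, the length of the shortest list, IgG 1 stood at 65.6, above DN2a 2 at 63.6 and DN2b 1 at 59.4. With the lists as deposited, the difference across groups did not pass (eta squared 0.612, exact permutation p = 0.0707, Benjamini-Hochberg adjusted p = 0.139).

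The Kit promoter held a second site, 0.9 kb into the gene in its first intron, at chr5:75575737-75575926. This site ranged from 75.9 to 88.6 in the 9 LSK and Delta1-cultured libraries and was without a peak in IgG 1 and IgG 2, with 32.2 in IgG 3. Its adjusted p was 0.0558 by the exact permutation test, just outside the threshold. With equal list lengths the adjusted p was 0.0116 by the same test, the lowest of alternatives that reached 0.783. At this site too the values of LSK, DN1, DN2a and DN2b cells overlapped.

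The Kit site that passed the test lay 120.4 kb from the start site, beyond the end of the gene, in intergenic sequence (chr5:75695257-75695446). Its percentiles were 75.5, 67.6 and 58.1 in LSK cells and 11.9 and 40.7 in DN1 cells, and it had no peak in any DN2a, DN2b or IgG library. The LSK and DN1 values did not overlap, with means of 67.1 ± 8.7 (SD, n = 3) and 26.3 ± 20.3 (SD, n = 2). The test across groups gave eta squared 0.944 and an adjusted p of 0.0396 by exact permutation. At equal list lengths the LSK values were 59.9, 46.4 and 20.8 with no peak in the other 9 libraries, and the adjusted p was 0.140 by exact permutation, within a range of 0.0362 to 0.184 over all alternatives.

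Another Kit site, over a coding exon 65.9 kb from the start, had a peak in all 3 LSK libraries and in no other. Its percentiles there were 4.2, 6.1 and 4.9, among the weakest peaks of those libraries, and the exact permutation test gave an adjusted p of 0.0651. Further downstream, the sites at 84.1 and 86.1 kb were open only in Delta1-cultured cells, the former in DN1 1 (35.7), DN2a 1 (25.5) and DN2a 2 (20.5) and the latter in DN2b 1 (20.4) and DN2b 2 (28.9). Neither passed the test, with adjusted p-values of 0.306 and 0.158 by exact permutation.

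Flt3 (chr5:147330741-147400489, minus strand) had the most sites of the 8 genes, 43, of which 5 lay at promoters of other genes. Of its sites 4 were seen in all 12 libraries, as were 13068 of all 170207 sites. The Flt3 promoter had percentiles of 94.0, 92.2 and 91.7 in LSK and of 91.7 and 92.2 in DN1 cells. DN2a cells had 79.3 and 84.1, and DN2b cells 79.0 and 88.9. IgG cells had 29.5 and 44.7 in IgG 1 and IgG 3, and no peak in IgG 2. Every LSK and DN1 library was above every DN2 library, and all of them were above the IgG libraries. Flt3 passed the test across promoters (eta squared 0.894, exact permutation p = 0.00128, adjusted p = 0.0265).

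Without the IgG libraries, the difference between stages at the Flt3 promoter site had an exact permutation p of 0.110 and an adjusted p of 0.442 over the other 9 libraries. In that test of the 4 stages alone, chosen after the data were seen, 0% of all sites and 0% of all promoters passed after Benjamini-Hochberg adjustment. At an unadjusted p below 0.05, 13.3% of all sites (20948 of 157736) and 23 of the 156 member sites open in these libraries passed the exact permutation test. Differences between stages are therefore given below as values and patterns of presence, and no call on a member from the test across 5 groups was kept without the IgG libraries. The 9 libraries allow 1260 divisions and a smallest p of 0.000794, which Ly6a +42.4 kb reached with an adjusted p of 0.110 by exact permutation. The loss of calls is thus not read as a result about any member.

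The Flt3 site with the clearest contrast to IgG cells lay 59.3 kb into the gene, over a coding exon (chr5:147341097-147341286). Its percentiles were 86.4, 85.7 and 92.5 in LSK, 92.0 and 92.5 in DN1, 85 and 92.7 in DN2a, and 93.5 and 97.5 in DN2b cells, and it had no peak in any IgG library. Eta squared was 0.997 and the adjusted p 0.0372 by exact permutation. Equal list lengths left it at 68.8 to 91.4 in the 9 libraries and without a peak in IgG cells.

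An intronic site of Flt3 33.9 kb from the start (chr5:147366457-147366686) was among the strongest of the set, from 88.9 in DN2b 1 to 97.7 in DN1 1. It had no peak in IgG 1 and IgG 2 and 32.2 in IgG 3 (adjusted p = 0.0259 by exact permutation). Upstream, at -26.1 kb and 3.5 kb from the start of the neighbouring gene Pan3 (chr5:147426497-147426726), a site was open in all 12 libraries. It stood at 80.0 to 93.2 in the LSK and Delta1-cultured libraries and at 46.7, 52.8 and 48.9 in IgG cells, with no overlap (adjusted p = 0.0325 by exact permutation). This last site shows a graded difference, since the IgG libraries had the peak at a lower rank.

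Not all of the Flt3 locus was lower in IgG cells. An intronic site 11.3 kb from the start (chr5:147389117-147389286) had percentiles of 85.6, 80.9 and 92.8 in the IgG libraries, 57.2 and 48.7 in LSK 2 and LSK 3, and no peak in LSK 1 or in any Delta1-cultured library. Its adjusted p was 0.0754 by exact permutation, outside the threshold. The neighbouring site at 7.7 kb was open in 11 libraries, with 85.9, 84.0 and 87.3 in LSK, 88.3 and 85.8 in DN1, 69.6 and 59.5 in DN2a, 53.5 in DN2b 2 alone of the DN2b libraries, and 50.7, 60.6 and 83.2 in IgG cells. The LSK and DN1 values there lay above all DN2 and IgG values, and the adjusted p was 0.0943 by exact permutation.

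Upstream of Flt3, a site at -17.7 kb had no peak in any LSK or IgG library. Its percentiles were 47.2 in DN1 1, 45.5 and 42.3 in DN2a, and 49.0 and 61.3 in DN2b cells, with none in DN1 2 (adjusted p = 0.0720 by exact permutation). The promoter of Pan3, a gene of mRNA decay that lies within the Flt3 window, stood at 75.9 to 91.7 in all 12 libraries, IgG cells included at 90.1, 84.7 and 81.9. The lower IgG values at Flt3 thus did not extend to this neighbour in the same window.

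Tek (chr4:94739289-94874976, plus strand) had the fewest sites, 7 in a window of the longest gene body of the set, and none was present in IgG cells. Its promoter had a peak in LSK 3 alone, at a percentile of 18.6. An intronic site at 29.6 kb had 71.6 and 14.3 in the DN1 libraries and 30.3 in DN2a 1, and no peak elsewhere. A site 161.6 kb from the start, past the end of the gene, had 39.6 in LSK 3, 35.7 and 19.6 in DN1, 23.1 in DN2a 1, and 7.2 and 35.3 in DN2b cells. None of the 7 sites passed the test, and 0 of them had an unadjusted exact permutation p below 0.05, where 29.9% of all sites were.

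Cd34 (chr1:194938819-194961279, plus strand) had 13 sites. At its promoter the percentiles were 58.6, 75.1 and 52.7 in LSK and 76.5 and 74.6 in DN1 cells. They were 27.9 in DN2a 1, with no peak in DN2a 2, and 30.8 and 39.9 in DN2b, and there was no peak in any IgG library. Every LSK and DN1 library was above every DN2 library, and the LSK mean was 62.1 ± 11.6 (SD, n = 3). The DN1 libraries had a mean of 75.5 ± 1.4, those of DN2a 13.9 ± 19.7 and those of DN2b 35.4 ± 6.5 (SD, n = 2 each). Cd34 passed the test across promoters (eta squared 0.935, exact permutation p = 0.000505, adjusted p = 0.0188).

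Among the 4 stages without IgG cells, the exact permutation p at the Cd34 promoter site was 0.00317 and the adjusted p 0.139. With equal list lengths the promoter had peaks in the LSK (32.3, 58.8 and 10.4) and DN1 libraries (31.2 and 46.5) and in none of the other 7. There the adjusted p across the 5 groups was 0.152 at the promoter by exact permutation, within a range of 0.0166 to 0.416 over all alternatives.

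An intronic site of Cd34 at 4.9 kb (chr1:194943617-194943806) was stronger than the promoter in all 9 of the LSK and Delta1-cultured libraries. It had 84.2, 84.0 and 89.7 in LSK, 98.4 and 93.2 in DN1, 89.4 and 88.6 in DN2a, 67.9 and 84.2 in DN2b, and a peak only in IgG 2 among IgG cells, at 8.9. The adjusted p was 0.00946 by exact permutation (eta squared 0.987), and at equal list lengths the 9 values ran from 40.1 to 95.4. In DN2a cells this site thus kept its rank where the promoter peak was weak or missing.

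The other Cd34 sites varied in both directions. A site at 37.6 kb, past the end of the gene and within a non-coding gene, was open in all 9 LSK and Delta1-cultured libraries at 44.9 to 84.5 and in no IgG library (adjusted p = 0.0511 by exact permutation). A site at 7.8 kb in an intron had no peak in LSK or IgG cells, 68.8 and 72.7 in DN1, 43.5 and 48.6 in DN2a, and 45.6 in DN2b 2. Upstream at -10.7 kb, a site had 29.5, 40.9 and 70.5 in IgG cells, 44.6 and 32.1 in LSK 2 and LSK 3, and no peak in Delta1-cultured cells. The adjusted p-values of these last 2 were 0.0651 and 0.173 by exact permutation.

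**Figure D2:**
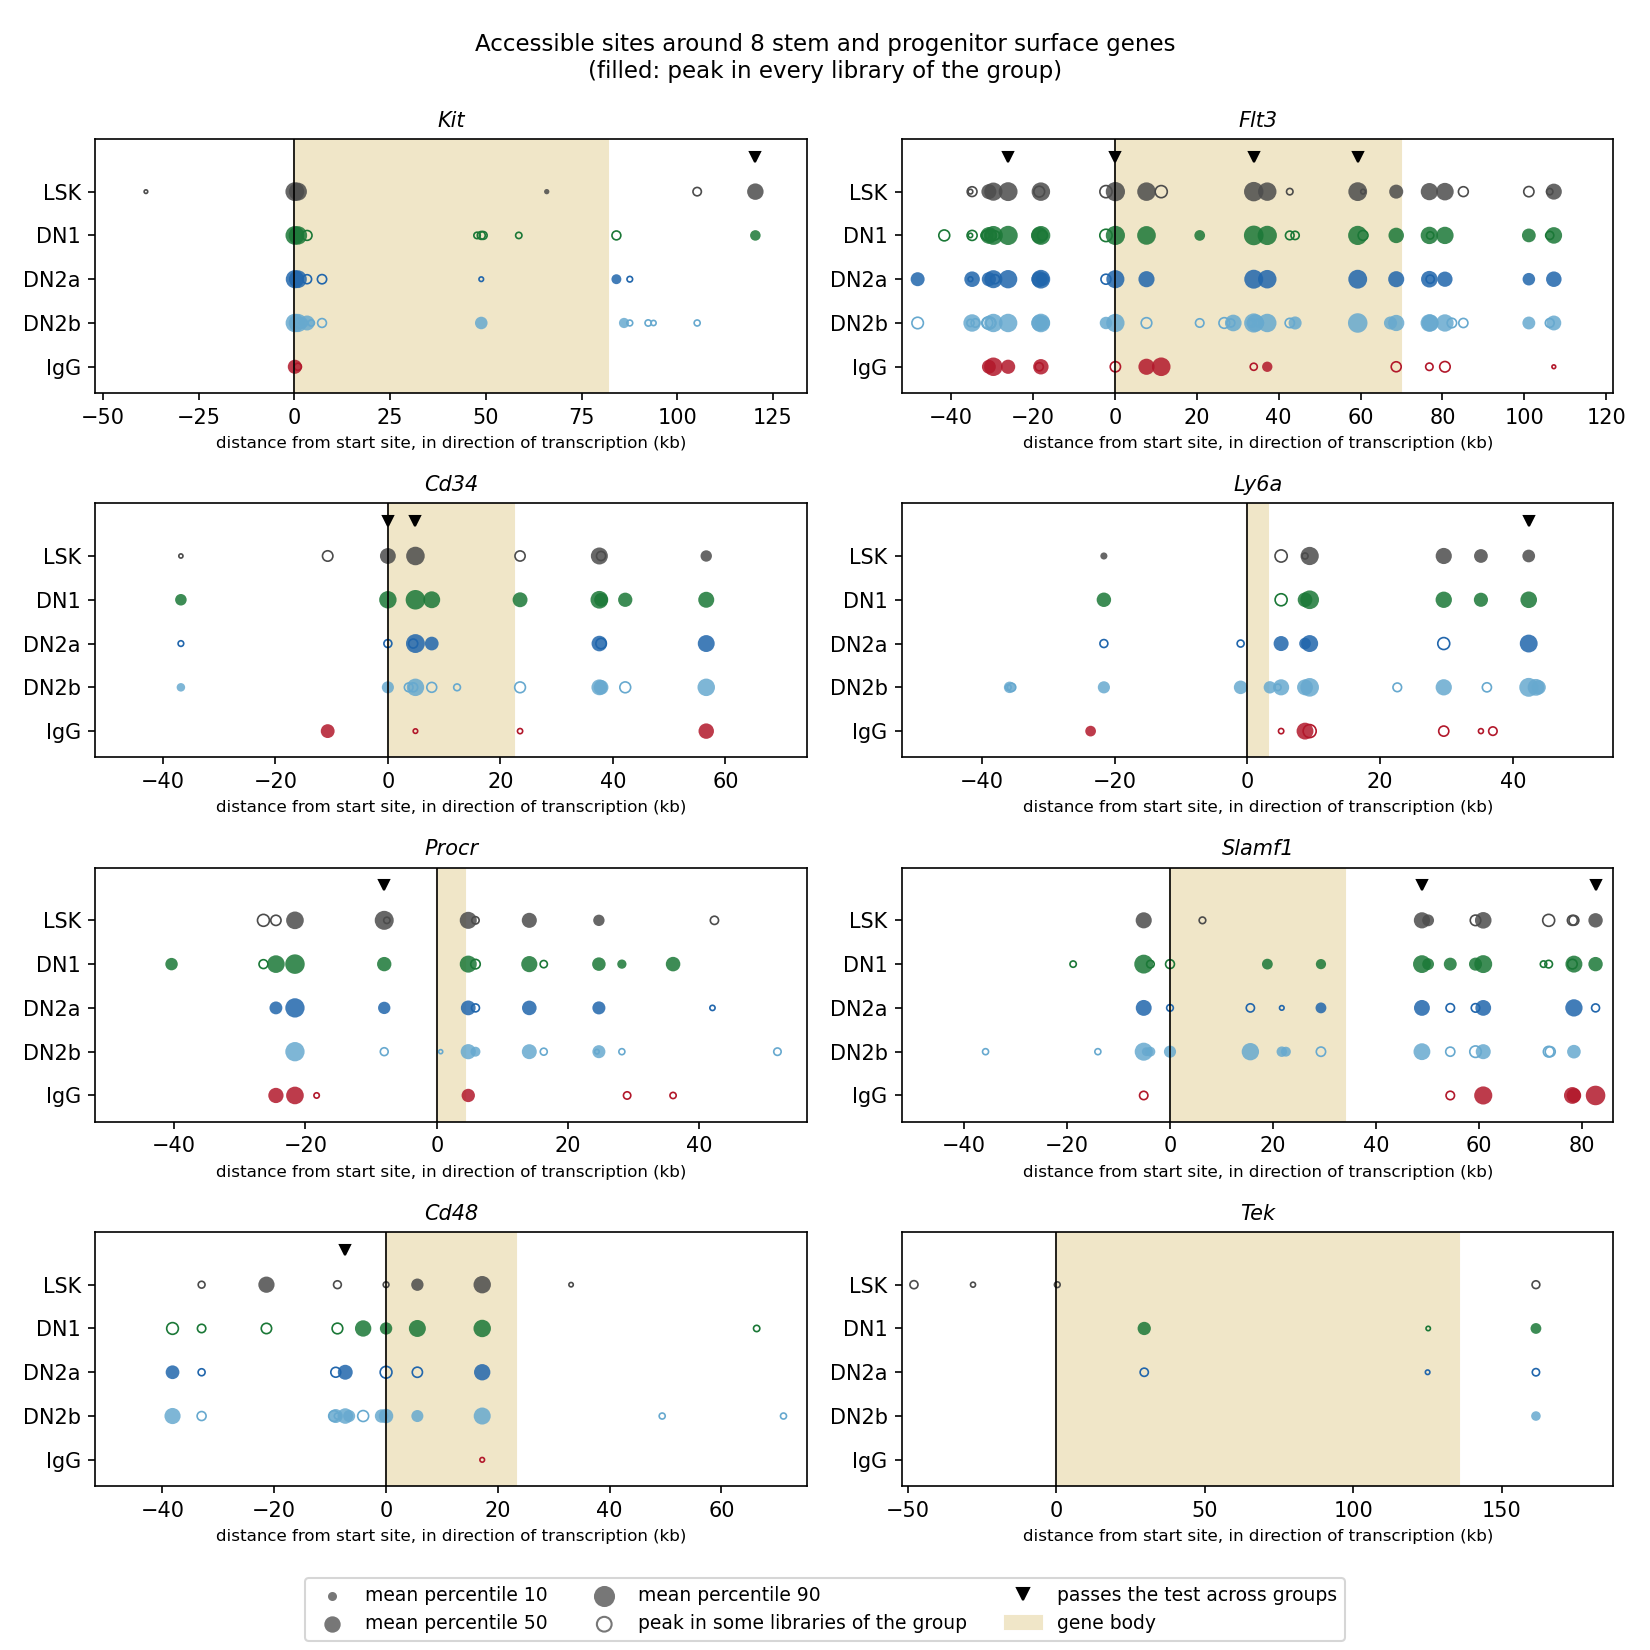
All sites around the 8 genes by distance from the start site in the direction of transcription (kb, x axis) and group (y axis). Dot area gives the mean percentile in the group, filled dots have a peak in every library of the group and open dots in some, triangles mark the 12 sites that passed the test, and shading is the gene body. Flt3 has 43 sites and Tek has 7.

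Slamf1 (chr1:171767127-171801184, plus strand) and Cd48 (chr1:171682009-171705258, plus strand) are neighbours on chromosome 1, and 3 sites lay in both windows. Slamf1 had 24 sites, counting these. At its promoter, LSK and IgG libraries had no peak. The percentiles elsewhere were 35.7 in DN1 1, 18.2 in DN2a 2, and 17.8 and 53.5 in DN2b cells, with none in DN1 2 and DN2a 1 (adjusted p = 0.162 by exact permutation). No library had a Slamf1 promoter peak at equal list lengths. SLAMF1 marks the small stem cell fraction of LSK cells, and fewer open cells cannot be told apart from less open chromatin per cell in these bulk libraries.

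Distal sites in the Slamf1 window were open in LSK cells all the same. Those at 48.9 and 50.1 kb lay nearer to the start site of Cd84, at 23.7 and 22.5 kb from it. Their assignment to Slamf1 is by distance only. A site at 48.9 kb, between Slamf1 and Cd84 (chr1:171815897-171816066), had 68.9, 67.6 and 58.1 in LSK, 81.5 and 76.2 in DN1, 60.9 and 63.9 in DN2a, and 59.0 and 82.0 in DN2b cells. It had no peak in any IgG library (eta squared 0.969, adjusted p = 0.0396 by exact permutation). At equal list lengths it kept a peak in those 9 libraries, at 18.8 to 50, and the adjusted p was 0.0701 by the same test, within a range of 0.0286 to 0.783 over all alternatives. A weaker neighbour at 50.1 kb had 38.6, 25.6 and 37.2 in LSK and 47.2 and 19.6 in DN1, and no peak in DN2a, DN2b or IgG cells (adjusted p = 0.0811 by exact permutation). A site upstream at -5.1 kb was open in 11 libraries, from 50.8 to 90.1 in LSK and Delta1-cultured cells and at 9.7 and 37.6 in IgG 1 and IgG 3 (adjusted p = 0.0651 by exact permutation).

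The one member site that passed the test with its highest mean in IgG cells lay 82.6 kb from the Slamf1 start, in an intron of Cd84, another SLAM family gene (chr1:171849577-171849786). The IgG libraries had percentiles of 92.5, 97.7 and 97.6. LSK cells had 56.8, 39.8 and 56.4, DN1 cells 35.7 and 65.9, DN2a 1 had 27.9, and DN2a 2 and both DN2b libraries had no peak. All IgG libraries were above all others (adjusted p = 0.0208 by exact permutation), and at equal list lengths they stood at 91.5, 97.7 and 97.2. This site is nearer to Cd84 than to Slamf1, and its assignment here is by distance only.

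In the body of Slamf1, 3 intronic sites were seen in DN2 cells and not in LSK, DN1 or IgG cells. At 15.6 kb the percentiles were 30.2 in DN2a 2 and 74.4 and 75.6 in DN2b, with adjusted p = 0.0977 by exact permutation. The site at 21.7 kb had 6.1 in DN2a 1 and 28.2 and 23.9 in DN2b, and that at 22.5 kb had 20.4 and 25.5 in DN2b alone. In DN1 cells alone, a site at 18.9 kb had 24.9 and 30.5. None of these 4 passed the test.

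Cd48 had 17 sites and little open chromatin in IgG cells. Its promoter stood at 18.6 in LSK 3, 31.5 and 42.9 in DN1, 66.5 in DN2a 2, and 40.5 and 63.2 in DN2b cells, and had no peak in the other 6 libraries (adjusted p = 0.190 by exact permutation). A site at -7.3 kb (chr1:171674617-171674806), in intergenic sequence, had 60.9 and 48.6 in DN2a and 52.6 and 66.8 in DN2b cells and no peak in the other 8 libraries. It passed with an adjusted p of 0.0488 by exact permutation (eta squared 0.980). At equal list lengths it kept peaks in DN2a 1, DN2a 2 and DN2b 1, at 18.8, 10 and 11.5, and the adjusted p was 0.174 by exact permutation, within a range of 0.0456 to 0.312 over all alternatives.

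A pair of intronic Cd48 sites was shared by LSK and Delta1-cultured cells. That at 17.2 kb ranged from 63.1 to 85.8 in these 9 libraries and from no peak to 6.9 in IgG cells, with an adjusted p of 0.0608 by exact permutation. That at 5.6 kb had 24.2, 49.3 and 37.2 in LSK and 68.8 and 74.6 in DN1 cells, and no peak in DN2a 1 or IgG cells. Upstream at -21.4 kb, a site had 56.8, 71.1 and 68.3 in LSK cells, 50.6 in DN1 1, and no peak in the other 8 libraries (adjusted p = 0.0776 by exact permutation). Its nearest start site was that of Slamf7, at 7.6 kb. The sites at -21.4 and -7.3 kb had no library in common.

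Ly6a (chr15:74994877-74998031, minus strand) had 19 sites, none at its promoter. A site at -1.0 kb, just outside the promoter window, had 20.5 in DN2a 2 and 30.8 and 59.2 in DN2b cells and no peak in LSK cells, although LSK cells were sorted for the product of this gene. On the other side of the gene, sites at 3.4 and 4.6 kb had peaks in DN2b cells alone, at 35.7 and 38.4 for the former and 17.3 in DN2b 2 for the latter. Stronger sites lay farther off. That at 9.4 kb, in non-coding genes, had 84.8, 76.0 and 88.3 in LSK, 67.7 to 89.1 in Delta1-cultured cells, and 55.6, 68.2 and no peak in IgG cells. That at 8.7 kb was highest in IgG cells, at 76.0, 89.6 and 46.9, with 53.7 and 51.5 in DN1, 27.9 and 37.6 in DN2a, 55.9 and 69.3 in DN2b, and 21.3 in LSK 3 alone of the LSK libraries (adjusted p = 0.0637 by exact permutation). Neither site passed the test. Reads in this cluster of closely related Ly6 genes can be hard to place, how such reads were treated is not given in the sources used here, and its part in the missing promoter peaks was not tested.

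The Ly6a window site that passed lay 42.4 kb from the Ly6a start and within the promoter of Ly6e, a Ly6 family gene (chr15:74955517-74955746). Its percentiles were 38.6, 44.6 and 34.7 in LSK, 73.4 and 63.2 in DN1, 80.0 and 79.2 in DN2a, and 85.3 and 93.0 in DN2b cells, and it had no peak in IgG cells. The 5 groups did not overlap, and the exact permutation p of 7.215e-06 is the smallest the design can give (eta squared 0.990, adjusted p = 0.00884). With lists of equal length, LSK cells kept a peak in LSK 2 only, at 8.4, and the Delta1-cultured libraries ran from 22.0 to 76.5 in the same order of groups. Among the 4 stages alone the exact permutation p was 0.000794, and the adjusted p was 0.110, the highest of all alternatives, which began at 0.00655.

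Procr (chr2:155751117-155755471, plus strand) had 20 sites and a promoter peak in DN2b 1 alone, at a percentile of 4.0. A site 8.0 kb upstream, in intergenic sequence (chr2:155743017-155743246), was highest in LSK cells, where the Ly6e promoter was lower than in all Delta1-cultured cells, and like it had no peak in IgG cells. Its percentiles were 90.6, 89.8 and 90.1 in LSK, 65.5 and 35.7 in DN1, 43.5 and 30.2 in DN2a, and 27.2 in DN2b 2, with none in DN2b 1. Every LSK library was above every other library, with an LSK mean of 90.2 ± 0.4 (SD, n = 3) against 50.6 ± 21.1 (SD, n = 2) for DN1 cells (adjusted p = 0.0224 by exact permutation, eta squared 0.939). In lists of equal length the site was present in LSK cells alone, with 84.6, 83.1 and 81.3 there and no peak in the other 9 libraries. Its nearest start site was that of Gm17581, at 7.3 kb.

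Other sites near Procr did not follow this order. The promoter of Edem2, a gene of protein quality control in the same window, stood at 73.4, 79.2 and 80.2 in LSK and at 91.1 to 95.5 in Delta1-cultured cells, with 79.2, 69.5 and 83.9 in IgG cells (adjusted p = 0.0651 by exact permutation). A site at 4.8 kb just past the Procr gene was open in all 12 libraries, with 66.4, 68.8 and 81.6 in LSK, 47.0 to 75 in Delta1-cultured cells and 40.9 to 44.7 in IgG cells (adjusted p = 0.0788 by exact permutation). The site at 14.1 kb was open in all LSK and Delta1-cultured libraries, at 40 to 77.8, and in no IgG library (adjusted p = 0.0651 by exact permutation).

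**Figure D3:**
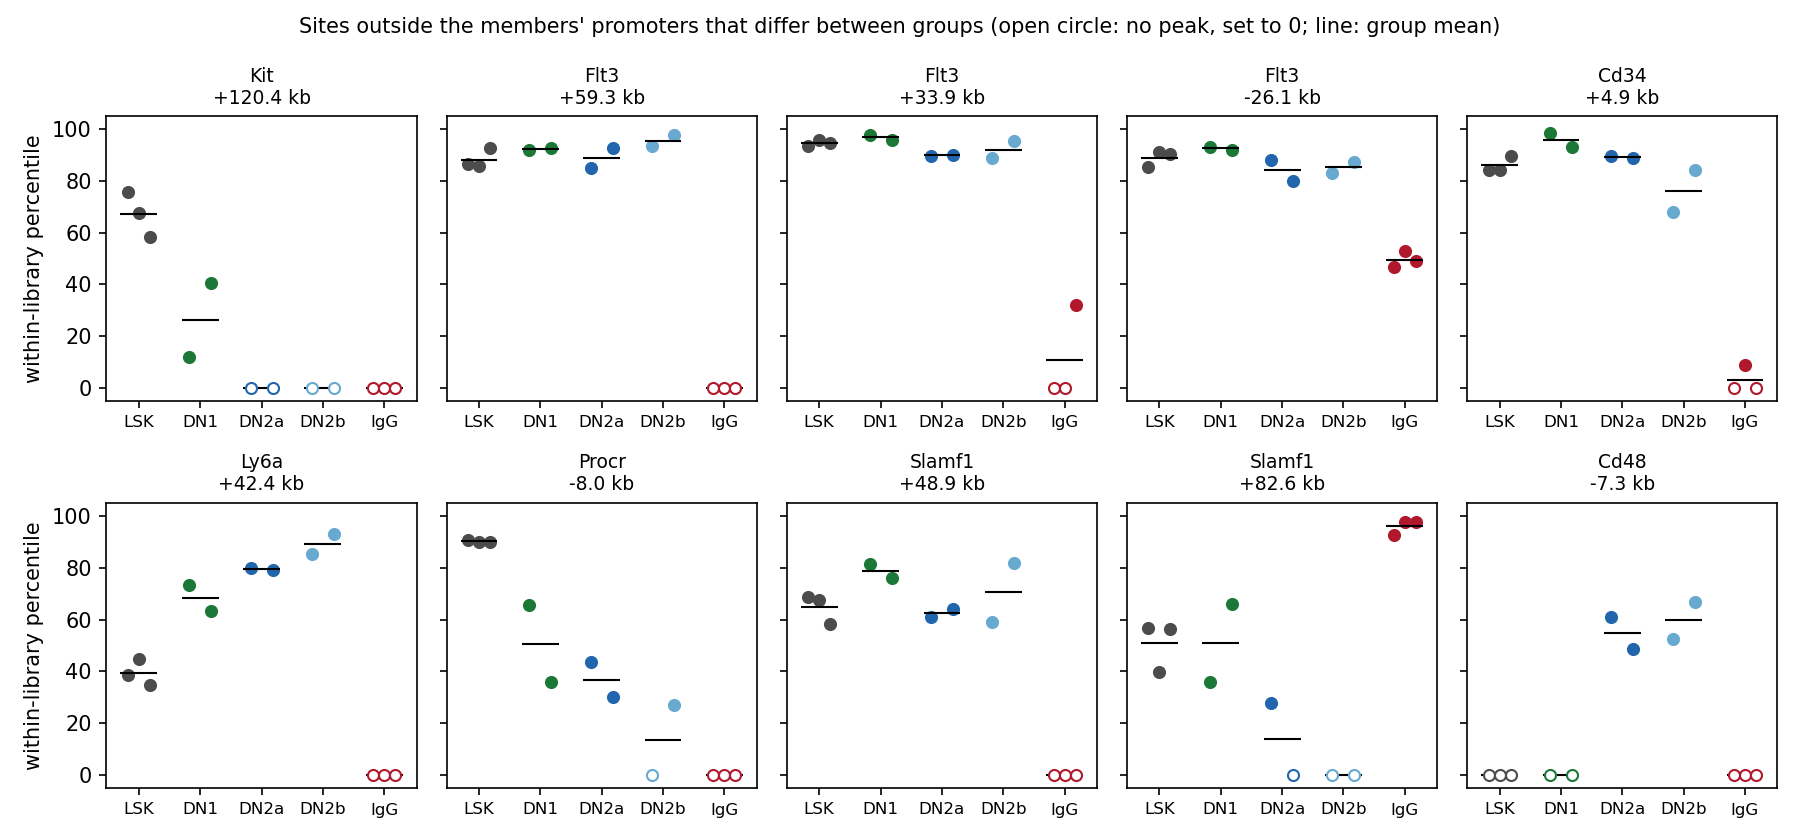
Within-library percentile (y axis) in each library (dots) by group (x axis) at the 10 sites outside the members' promoters that passed the test across groups, with open circles at 0 for no peak and a line at the group mean. IgG cells are lowest or tied at 0 at 9 of the 10 sites and highest at Slamf1 +82.6 kb, and LSK cells are highest at Kit +120.4 kb and Procr -8.0 kb.

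Presence alone was then compared between pairs of groups. Of 107 member sites open in LSK or DN1 cells, 1 was in every LSK and no DN1 library (Kit at 65.9 kb), against a background of 1.71% of all sites. In the other direction 11 (10.3%) were in every DN1 and no LSK library, against 11.4%. They lay near Flt3 (1), Cd34 (2), Procr (3), Slamf1 (3), Cd48 (1) and Tek (1), and none near Kit or Ly6a. With equal list lengths, 3 of 51 member sites (5.88%) were in every LSK and no DN1 library, against 6.71% of all sites, and 1 (1.96%) in the reverse, against 8.57%. Between DN1 and DN2 cells, 6 of 145 sites (4.14%) were in both DN1 and none of the 4 DN2 libraries, against 4.48% of all sites. They were Kit at 120.4 kb, Ly6a at 35.2 kb, Procr at -40.4 and 36.0 kb, and Slamf1 at 18.9 and 50.1 kb. The reverse held for 1 site, Cd48 at -7.3 kb, against 1.05%. At equal list lengths 2 of 54 sites (3.7%) were in both DN1 and no DN2 library, against 5.72% of all sites, and 1 (1.85%) was the reverse, against 4.08%.

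From LSK to DN2 cells, 5 of 145 sites (3.45%) were in every LSK and no DN2 library, against 2.66% of all sites. They were Kit at 65.9 and 120.4 kb, Ly6a at 35.2 kb, Slamf1 at 50.1 kb and Cd48 at -21.4 kb. The Ly6a site, in intergenic sequence, had 54.9, 57.2 and 26.9 in LSK, 50.6 and 47.4 in DN1 and 12.2 in IgG 1. In the reverse direction 3 sites (2.07%), Flt3 at -17.7 kb and Cd48 at -38.2 and -7.3 kb, were in every DN2 and no LSK library, against 4.64%. The Cd48 site at -38.2 kb, in an intron of Slamf7, had 65.5 in DN1 1, 62.3 and 30.2 in DN2a, and 52.6 and 76.8 in DN2b cells. At equal list lengths 4 of 62 sites (6.45%) were in every LSK and no DN2 library, against 6.74% of all sites, and 1 (1.61%) was the reverse, against 7.24%.

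Between LSK and IgG cells, 14 of 81 sites (17.3%) were in every LSK and no IgG library, against 14.5% of all sites, and 1 site was in every IgG and no LSK library, against 4.61%. The 14 lay near all members but Tek. The 1 site, Ly6a at -23.6 kb, had 32.3, 8.9 and 40 in IgG cells and no peak elsewhere. Between the 6 Delta1-cultured libraries and IgG cells, 7 of 151 sites (4.64%) were in every Delta1 and no IgG library, against 7.37%, and 3 (1.99%) were the reverse, against 2.43%. These comparisons share the IgG libraries, whose lists are the shortest. At equal list lengths, 9 of 57 member sites (15.8%) were in every LSK and no IgG library, against 8.85% of all sites, and 4 (7.02%) were the reverse, against 9.13%. Between Delta1-cultured and IgG cells the counts there were 3 of 66 (4.55%) against 5.46% and, in the reverse, 5 (7.58%) against 8.13%, so members and all sites alike had more of the latter.

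The number of peaks in the gene body and 50 kb on either side had the highest eta squared at Cd48 (0.818) and Kit (0.781). Cd48 had 3, 5 and 5 peaks in LSK, 9 and 4 in DN1, 4 and 6 in DN2a, 10 and 13 in DN2b, and 1, 1 and 0 in IgG cells. Per 10000 peaks of the library the LSK mean was 0.76 ± 0.18 and the IgG mean 0.19 ± 0.17 (SD, n = 3 each), and DN2b cells had 1.40 ± 0.33 (SD, n = 2). The exact permutation test gave p = 0.00416 and an adjusted p of 0.0569. Kit had 5 peaks in each LSK library, 6 and 6 in DN1, 7 and 3 in DN2a, 7 and 12 in DN2b, and 1, 1 and 2 in IgG cells, with an adjusted p of 0.114 by exact permutation. Tek had 2, 0 and 3 peaks in LSK, 3 and 2 in DN1, 2 and 1 in DN2a, 1 and 1 in DN2b, and 0 in each IgG library. Ly6a had 6 to 8 peaks in LSK, 12 and 6 in DN1, 8 and 7 in DN2a, 13 and 25 in DN2b, and 9, 7 and 4 in IgG cells. Its scaled means were 1.23 ± 0.10 in LSK and 1.86 ± 0.70 in IgG cells (SD, n = 3 each) and 2.18 ± 0.09 in DN2b cells (SD, n = 2), with an adjusted p of 0.213 by exact permutation.

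Peaks were most numerous at Flt3, with 19, 16 and 21 in LSK and 12, 9 and 13 in IgG cells. Scaled to list length these gave similar means of 3.28 ± 0.31 and 3.13 ± 0.37 per 10000 peaks (SD, n = 3 each). Among all loci 5.65% passed the test (1148 of 20334), and 0 of the 8 members did, with 2, Kit and Cd48, at an unadjusted exact permutation p below 0.05, where 30.6% of all loci were. The scaled values of Flt3 overlapped, at 3.53, 2.93 and 3.37 in LSK and 3.20, 2.73 and 3.47 in IgG cells. With only the upper 50% of each list counted, the Flt3 locus passed the test (eta squared 0.909, adjusted p = 0.0146 by exact permutation), where 24.7% of all loci passed.

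**Figure D4:**
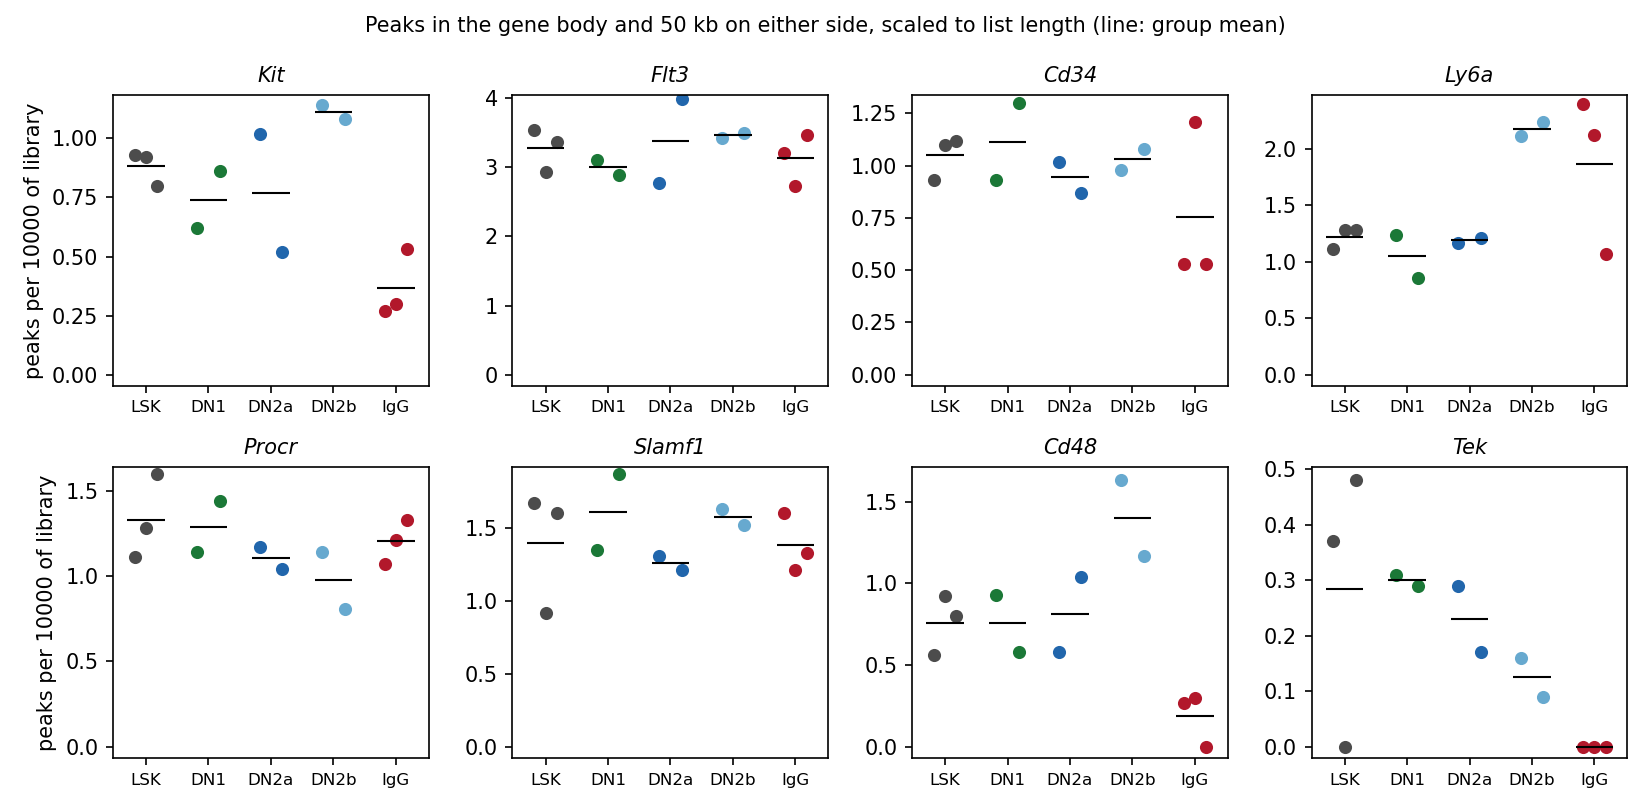
Peaks in the gene body and 50 kb on either side per 10000 peaks of the library (y axis) in each library (dots) by group (x axis), with a line at the group mean. By group mean, IgG cells are lowest at Kit, Cd34, Cd48 and Tek, and none of the 8 genes passed the test across groups.

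The promoters of genes related to the members were read from lists by family. Of the ligands, Kitl, Flt3l and Angpt1 had a promoter peak in some library and Angpt2 in none, and 0 of the 3 passed the test, at unadjusted exact permutation p-values of 0.0607 to 0.333. Flt3l stood at 74.5 to 99.1 in all 12 libraries and Kitl, the gene of stem cell factor, at 0 to 23.9. Of 7 related receptor tyrosine kinases 1 passed, Pdgfrb, with 29.5 to 85 in LSK and Delta1-cultured cells and no peak in IgG cells (adjusted p = 0.0428 by exact permutation). Of the Ly6 family, 7 of 9 genes had no promoter peak, as Ly6a had none. Besides Ly6e, Ly6c2, a gene of monocytes and other myeloid cells, passed, with 75.1, 80.0 and 79.6 in IgG cells and no peak elsewhere (adjusted p = 0.0472 by exact permutation).

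In the SLAM family 1 of 6 promoters with a peak passed, that of Ly9, with 0 to 39.8 in LSK and 66.5 to 84.2 in Delta1-cultured cells (adjusted p = 0.0474 by exact permutation). Among 3 sialomucins with a peak 0 passed. Of these, 2, Podxl and Spn, had unadjusted exact permutation p-values of 0.0427 and 0.0306, and 42.7% of all promoters were below 0.05. Of the 4 genes of the protein C system 1 passed, F3, the gene of tissue factor, which had 16.1 and 22.4 in DN1 and 28.2 and 30.6 in DN2b cells and no peak elsewhere. Of 14 other progenitor surface genes with a peak 4 passed, Cd27, Cd93, Itga2b and Alcam. Itga2b, the integrin chain of megakaryocytes, stood at 87.3 to 93.5 in LSK, 96.2 and 91.5 in DN1, 88.5 and 84.7 in DN2a, and 40.5 and 68.5 in DN2b cells, with no peak in IgG cells (adjusted p = 0.0126 by exact permutation). The shares passing are to be read against 20.2% of all promoters.

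Markers of other cell types were checked beside the members, since Kit is also open in mast cells and Tek and Procr in endothelial cells. Of 10 mast cell genes 6, Ms4a2, Fcer1a, Mcpt4, Tpsb2, Tpsab1 and Cma1, had no promoter peak in any library, and Cpa3 had none in IgG cells. The number open was 2 in each LSK and DN1 library, 2 to 3 in DN2a, 2 to 4 in DN2b and 1 in IgG cells, and 1 of the 4 with a peak passed the test, highest in DN2a cells. Of 10 endothelial genes 5, Cdh5, Emcn, Esam, Egfl7 and Cldn5, had none in any library, with 1 open in each IgG library and 2 to 4 in the others. Of 10 erythroid and megakaryocyte genes 7 to 8 were open in LSK, 6 to 8 in DN1, 5 to 6 in DN2a, 4 to 5 in DN2b and 1 to 2 in IgG cells. Of 10 B cell genes 1 to 4 were open per library, and Cd79a, Cd79b, Pax5 and Ms4a1 were among those open in none. These marker counts were not taken at equal list lengths, and the part of the short IgG lists in the low IgG counts was not tested.

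By the Pearson correlation of promoter percentiles over the 12 libraries, the genes most like Kit were Naa30 (0.989) and Stx2 (0.988), those most like Flt3 were Tmed5 and Ccdc18 (0.992 each), and those most like Cd34 were Ablim3 (0.957) and Pja1 (0.954). Pkp2 (0.986) and Slc47a1 (0.956) were most like Slamf1, and Gm9 (0.935) and Gm49510 (0.925) most like Cd48. A profile like that of Flt3 or Kit was common, with 395 and 260 promoters above 0.95, while 3 were above it for Cd34. These correlations are across libraries that share groups and list lengths and are given as a description. Procr and Tek, with a peak in 1 library each, have no informative profile.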

How the data were processed

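DNase-seq libraries were made from 12 samples. Per the study's methods, the authors trimmed reads, aligned them to mm10 with BWA 0.7.12 (named with SAMtools 1.2 in the submitters' processing notes), and called peaks with hotspot2 (false discovery rate 0.05). The deposited lists, 1 per library, hold peaks of 150 bp. The deposited column used is a score of no stated meaning, and was used only for ranks. Peaks on the autosomes and X were ranked within each library (Python 3.11.15, numpy 2.4.6, pandas 2.3.3). Start sites are the 5' ends of GENCODE M21 gene records, a later release than the study's. Coordinates are mm10, 1-based. The study's own test needs reads and was not run. Eta squared and the exact permutation test were tried on simulated promoter values. Recovery after Benjamini-Hochberg adjustment was checked there only in a subset richer in changed promoters. No set as large as all sites was simulated. P-values measure the spread between libraries, which can share isolates. The members, lists and tests were chosen with earlier results of these data known. Named are each gene's promoter, up to 4 passing distal sites (2 where none passes) and 2 like promoters; further sites were chosen after their values were seen. Alternatives were list length, threshold, window, merging, unit and left-out libraries.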

Additional observations from a re-analysis of the deposited data

How the results depend on the processing

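The lists give no depth, so a short list may lack peaks that deeper reading would call. With equal list lengths 20 of 72 member sites passed (21.1% of all sites), with the deposited score 6 of 160 (4.79%), and with presence alone 0 of 160 (0% of all sites, with 36 member sites and 19.4% of all sites at an unadjusted exact permutation p below 0.05). Of the 12 sites passing with the lists as deposited, 8 passed at equal lengths and 7 at the stricter threshold. Kit +120.4 kb, the Cd34 promoter, Slamf1 +48.9 kb and Cd48 -7.3 kb did not at either, nor Procr -8.0 kb at the latter. Among the stages alone, an alternative chosen after the data were seen, 0 sites, 0 promoters and 0 loci passed, with 23 of 156 sites (13.3% of all sites), 1 of 7 promoters (13.9%) and 1 of 8 loci (12.9%) at an unadjusted exact permutation p below 0.05. Over single promoters, sites and loci, 497 of 662 alternative tests stayed on the same side of the threshold. Of the others, 153 lost a call, 12 gained one and 0 were classed as reversed. Single groups could still change places. At Cd48 -7.3 kb the mean was highest in DN2b cells as deposited. At equal lengths DN2a cells had 18.8 and 10 there, against 11.5 in DN2b 1 and no peak in DN2b 2.

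Promoters passing numbered 1 at equal lengths (8.45% of all promoters) and 1 at the stricter threshold, the upper 50% of each list (22.3%), against 2. They numbered 0 with presence (0%) or the deposited score (1.04%), where 1 and 2 of 7 had an unadjusted exact permutation p below 0.05 (9.06% and 32.3%). Loci passing numbered 1 at equal lengths (Procr, with 12.8% of all loci passing), 4 at the stricter threshold (Kit, Flt3, Procr and Cd48, with 24.7%), 1 at 25 kb (Slamf1, with 5.31%), 1 at 100 kb (Cd48, with 8.2%) and 2 with numbers as deposited (Kit and Cd48, with 10.8%), against 0. Windows of 500 bp and 2.5 kb, every coding start site and both ways of merging moved no count by over 1.5 times.

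Shares in parentheses here are of all sites. At equal lengths, sites in every LSK and no DN1 library numbered 3 of 51 (6.71%) and the reverse 1 (8.57%). Those in every DN1 and no DN2 library numbered 2 of 54 (5.72%) and the reverse 1 (4.08%). Those in every DN2 and no LSK library numbered 1 of 62 (7.24%). Those in every LSK and no IgG library numbered 9 of 57 (8.85%) and the reverse 4 (9.13%). Those in every Delta1 and no IgG library numbered 3 of 66 (5.46%) and the reverse 5 (8.13%). At the stricter threshold, 7 of 60 sites were in every DN1 and no LSK (15.1%), 3 of 80 in every DN1 and no DN2 (5.65%), 2 of 76 in every DN2 and no LSK (7%), and 2 of 83 in every IgG and no Delta1 library (2.85%). There 18 of 48 (37.5%) were in every LSK and no IgG library, against 17.9% of all sites. Those in every Delta1 and no IgG library were 12 of 83 (14.5%) against 9.92%, above the share of all sites, where the lists as deposited gave 4.64% against 7.37%, below it.

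Leaving out 1 library at a time gave 0 to 2 promoters and 0 to 10 sites passing. Sites fell to 0 without any one of the IgG libraries, where 0% of all sites passed. They numbered 4 without DN2a 1 or DN2a 2 (2.93% and 2.7% of all sites), 5 and 6 without DN1 1 and DN1 2 (4.09% and 4.34%), 7 without LSK 2 (3.71%), and 8 without LSK 1 or LSK 3 (3.82% and 3.75%). Promoters fell to 0 without DN1 1, DN1 2, DN2a 2 or IgG 2 (1.28%, 1.28%, 0% and 2.5% of all promoters), with 2 or 3 of 7 and 35% to 36.3% of all promoters at an unadjusted exact permutation p below 0.05, and to 1 without DN2a 1, either DN2b library, IgG 1 or IgG 3 (1.27% to 6.96%). Loci passing were 0 to 1, the 1 being Tek without LSK 2 (3.01% of all loci). Counts of sites by presence ran from 1 to 5 for every LSK and no DN1 library and from 11 to 25 for the reverse, from 6 to 15 for every DN1 and no DN2 library and from 1 to 5 for the reverse, and from 5 to 8 for every LSK and no DN2 library and from 3 to 7 for the reverse. They ran from 14 to 22 for every LSK and no IgG library and from 1 to 2 for the reverse, and from 7 to 11 for every Delta1 and no IgG library and from 3 to 4 for the reverse. Such counts can only stay or grow when a library is left out of either group. The shares of all sites with a library left out are not given here, so these ranges have no background to be read against. No paired analysis was possible because the labels give no replicate numbers shared between groups, and the numbers used here follow accession order.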
